A study of Xenopus tropicalis with 12 samples.

Results

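Genes of cilia and microtubule motors were followed in whole embryos of the frog Xenopus tropicalis exposed to naphthenic acids, the carboxylic acids found in petroleum. The genes were chosen by symbol. A gene counted if its symbol began with ift, bbs, dnah, dnai, dnal, dync, cfap, rsph, drc, tekt, spag, cep, ttll or kif, followed by a digit, and if an array probe named one of its RefSeq transcripts. Of the 176 genes with such symbols in the RefSeq table, other than ift88 and kif5c, 48 had a matched probe, and 44 of these were measured, that is, marked by the scanner software as well above background on 4 or more of the 12 arrays. They are 44 of the 4372 measured genes with a symbol. The groups were embryos exposed to mixture S1, embryos exposed to mixture S2 and control embryos, each with 4 arrays and each taken 3 days after fertilization. Both mixtures were batches of the same commercial product, and the dose, the length of exposure, the number of embryos behind each sample and the embryos' strain are not given in the sources used here. Nothing in the labels says that the 4 samples of a group came from separate clutches or tanks, so the p-values measure the spread between these samples, which may be partly technical.

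Cilia are microtubule-based projections of the cell surface. They are built from a basal body, which is a modified centriole, and are extended by intraflagellar transport, in which kinesin-2 carries cargo outward along the doublet microtubules and dynein carries it back. The BBSome, a coat-like complex, moves membrane proteins in and out of the cilium. Motile cilia also carry axonemal dynein arms, radial spokes and a central apparatus. The skin of Xenopus tadpoles is studded with multiciliated cells whose beating drives fluid over the body, and motile cilia also serve the left-right organizer, the nephrostomes and the brain ventricles. The remaining kinesins and cytoplasmic dynein move vesicles and organelles, or build and pull the mitotic spindle.

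The measured genes held 5 of ciliary trafficking, 11 of the motile axoneme, 13 of the centrosome and centriole, 2 tubulin ligases, 8 transport motors and 5 kinesins of cell division. The dnal, drc, tekt and spag families had no matched probe. Of the 44 probes, 40 were well above background on all 12 arrays. The dimmest members inside the threshold were rsph10b on 5 arrays, cep135 and kif14l on 7 each and ttll2 on 9. Just outside it lay cfap70 on 2 arrays, cep63 on 1, and kif2a and ttll3 on 0. Probe names marked 34 of the 44 probes as specific and 10 as cross-hybridising, which is read here as able to bind related transcripts too.

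Levels are given as log2 signal minus the 75th percentile of the array, so that a level can be compared between arrays for 1 probe but not between probes. The raw 75th percentile lay between 260.9 and 537.3 on S1 arrays, between 481.3 and 675.1 on S2 arrays and between 499.5 and 984.8 on control arrays. Probes well above background made up 84.2% to 87.4% on S1 arrays, 84.4% to 86.4% on S2 arrays and 85.7% to 92.3% on control arrays. The arrays lay on 3 slides of 4 arrays, each holding at least 1 array of every group. Whole-embryo tissue was represented by markers of several organs. All 5 measured retina and lens genes, all 4 liver genes, both neuron genes and both epidermis genes were well above background on all 12 arrays, and no skeletal muscle gene of the list had a measured probe. In whole embryos fewer cells of a type and less RNA per cell cannot be told apart.

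The first question was whether either mixture altered expression of these genes. No member passed the test in S1 embryos against control embryos or in S2 embryos against control embryos (limma over 29168 probes, Benjamini-Hochberg adjusted p under 0.05). Over all tested probes, 2.10% passed with S1 and 5.06% with S2. At an unadjusted p under 0.05 the count was 6 of 44 members with S1 (13.6%, against 17.2% of all probes) and 6 of 44 with S2 (13.6%, against 21.4% of all probes). The moderated F-test over the 3 groups called 0 of 44, where it called 3.01% of all probes, and 5 members (11.4%) had an unadjusted p under 0.05, as had 19.3% of all probes. The smallest adjusted p was 0.0703 for bbs7 with S1 and 0.0615 for kif20a with S2.

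The count of 0 depends on the choice of genes, because ift88 and kif5c were set aside. The product of ift88 is a core component of the intraflagellar transport particle, and kif5c is a neuronal heavy chain of conventional kinesin. Levels of ift88 were -2.29, -2.01, -2.28 and -2.02 in S1 embryos, -2.24, -2.22, -2.12 and -2.03 in S2 embryos, and -1.81, -1.78, -1.57 and -1.64 in control embryos. Every exposed sample lay below every control sample, and the gene fell by 0.45 ± 0.10 on the log2 scale with S1 (SE, limma adjusted p = 0.0488) and by 0.45 ± 0.10 with S2 (limma adjusted p = 0.0301). Levels of kif5c were -1.74, -2.43, -2.25 and -2.48 in S1 embryos, -2.42, -2.33, -2.77 and -2.54 in S2 embryos, and -1.82, -1.50, -1.75 and -1.57 in control embryos. It fell by 0.86 ± 0.16 with S2 (limma adjusted p = 0.0148), with no overlap between S2 and control samples, and its S1 difference of -0.57 ± 0.16 did not pass (limma adjusted p = 0.101). With both genes included, 1 of 46 was called with S1 (2.17%) and 2 of 46 with S2 (4.35%).

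The size of the members' differences was small. The median log2 difference over the 44 members was -0.028 with S1 and -0.026 with S2, and over all tested probes it was -0.015 with S1 and -0.043 with S2. The median size of a difference, whatever its sign, was 0.109 for members with S1 and 0.138 with S2, against 0.159 and 0.185 for all probes. Members ranged between -0.75 and 0.41 with S1 and between -0.36 and 0.46 with S2. Differences below 0 were seen for 29 of 44 members with S1 (65.9%, against 52.5% of all probes) and for 26 of 44 with S2 (59.1%, against 56.4%). The balance depended on the processing of the signal. When the measured background was corrected spot by spot with normexp, the median of all probes was 0.26 with S1 and 0.15 with S2, and that of the members was 0.26 and 0.12. When outlying local backgrounds were first replaced, the median of all probes was 0.16 with S1 and 0.081 with S2, and that of the members was 0.12 and 0.061. The sign of 9 of the 22 members named by the rule turned with S1 and of 10 with S2 when backgrounds were taken as measured, and of 8 and 6 with outlying backgrounds replaced. Both forms added an offset of 50 to every spot, which weighs most on dim probes. They also started from the median spot signal in place of the processed signal. The part of background correction alone was not tested.

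A miss of the threshold does not show that a gene stayed level, so the intervals of the main fit set a bound for that fit. They are not adjusted for the number of genes and do not cover other processing. With the mean log2 signal of each array as a covariate, the S1 difference of cep70 moved from 0.058 to -0.77. That of kif18b moved from 0.014 to -0.64. The mean log2 signal ran between 6.002 and 6.763 on S1 arrays and between 6.796 and 7.616 on control arrays. That fit can therefore hardly separate brightness from S1 exposure. The 95% interval of the log2 difference lay within 1 on either side of 0, a 2-fold change, for 42 of 44 members with S1 and for 43 of 44 with S2. The exceptions were rsph10b and kif21a with S1 and cep70 with S2. Within 0.5 on either side of 0 lay 28 intervals with S1 and 25 with S2. For the typical member, a log2 difference of 0.57 with S1 or 0.51 with S2 would have been needed for a call at its own spread.

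**Figure D1:**
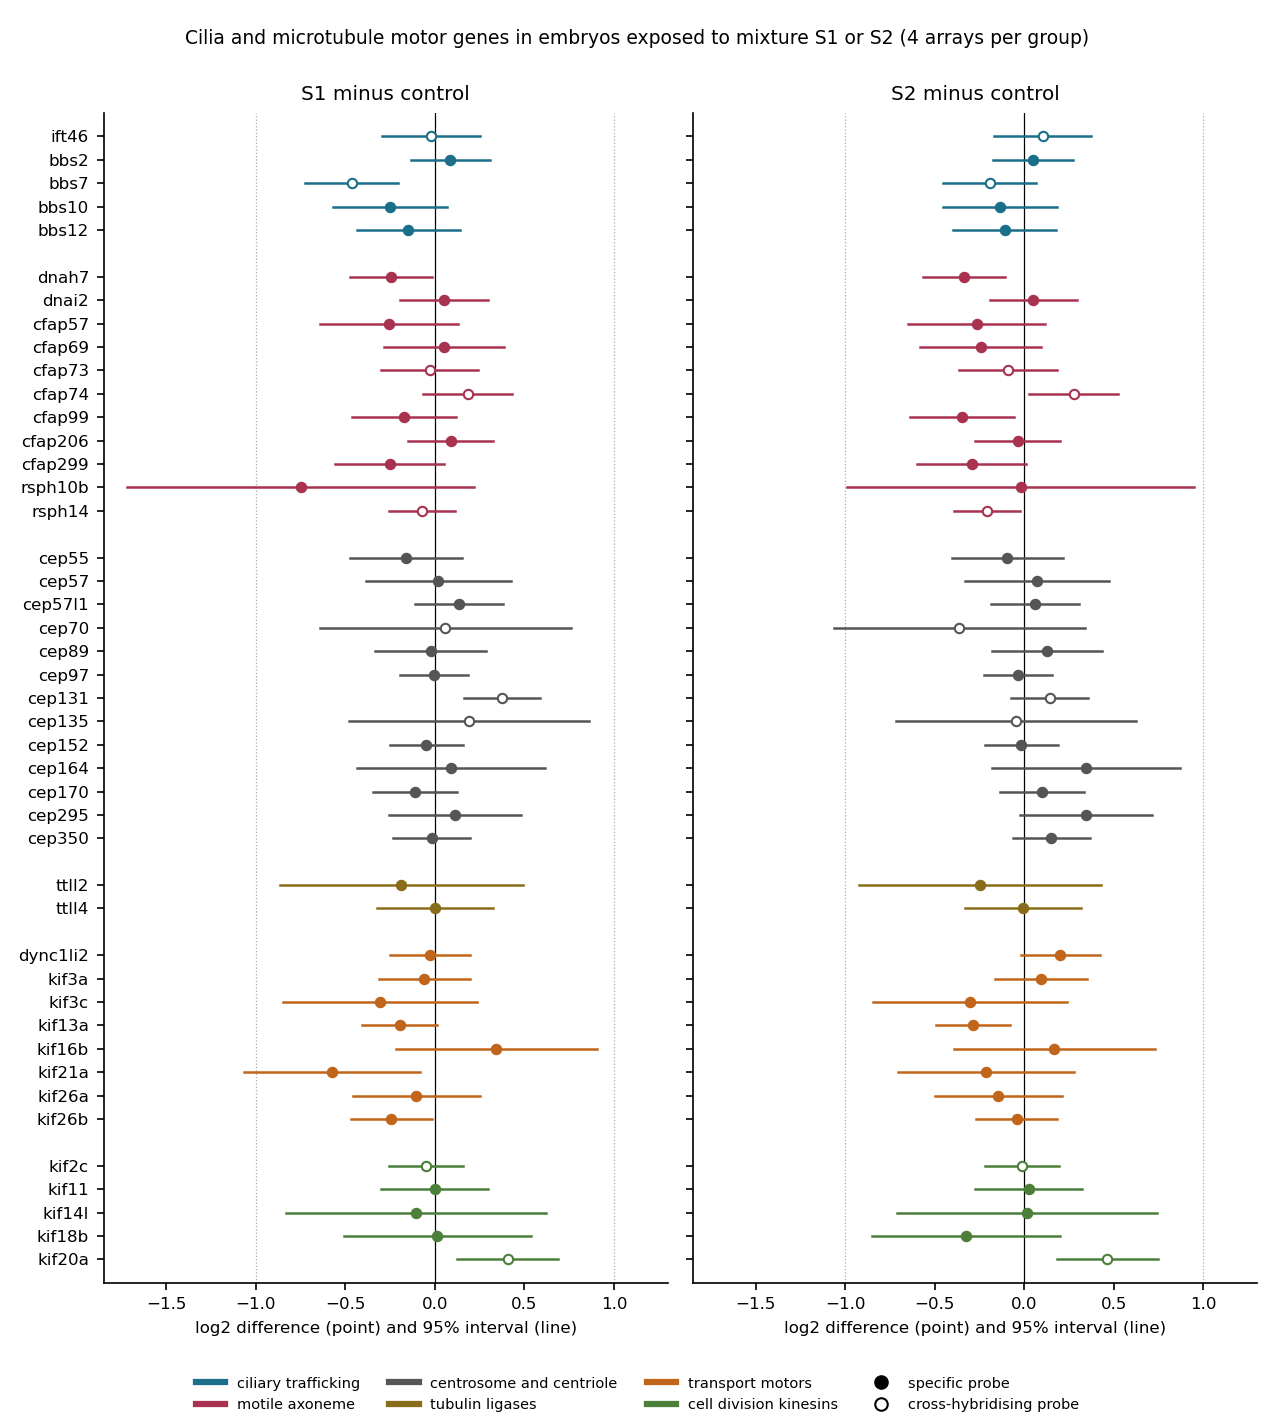
Log2 difference of each of the 44 members (point) with its 95% interval (line), for S1 minus control on the left and S2 minus control on the right, from 4 arrays per group. Colours give the role, open points mark cross-hybridising probes and dotted lines mark a 2-fold change. The points gather around 0, and only the intervals of rsph10b and kif21a with S1 and of cep70 with S2 cross a dotted line.

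The 5 ciliary trafficking genes lay close to control, with median differences of -0.15 with S1 and -0.11 with S2, which turned to 0.31 and 0.15 with normexp on backgrounds as measured and to 0.12 and 0.067 with outlying backgrounds replaced. The member nearest to a call was bbs7, which encodes a BBSome subunit. Its levels were -2.69, -2.80, -3.06 and -2.54 in S1 embryos, -2.53, -2.46, -2.55 and -2.46 in S2 embryos, and -2.46, -2.33, -2.09 and -2.34 in control embryos. All 4 S1 samples lay below all 4 control samples, while S2 and control samples overlapped at control replicate 1. The S1 difference was -0.47 ± 0.12 (SE, limma adjusted p = 0.0703) and the S2 difference was -0.19 ± 0.12 (limma adjusted p = 0.384). The S1 call was made after quantile normalization and with the authors' value table, which matched the quantile-normalized values (adjusted p = 0.0476 in each). It was also made when S1 replicate 4 was left out (adjusted p = 0.0452). Over 27 alternative fits the adjusted p of bbs7 with S1 ran between 0.0452 and 0.788. The upper end came from normexp on backgrounds as measured, where 28 of all tested probes passed with S1, against 612 in the main fit. The sign of bbs7 with S1 also turned there, to 0.31, but not with outlying backgrounds replaced, which gave -0.10.

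The remaining trafficking genes gave smaller differences. The intraflagellar transport gene ift46 had levels of 4.44, 4.48, 4.48 and 4.06 in S1 embryos, 4.54, 4.51, 4.48 and 4.42 in S2 embryos, and 4.49, 4.49, 4.08 and 4.49 in control embryos. The groups overlapped, with 1 low sample in S1 and 1 in control, and the differences were -0.020 ± 0.13 with S1 and 0.10 ± 0.13 with S2 (SE). BBSome subunit bbs2 stood at 0.087 with S1 and 0.047 with S2. The chaperonin-like genes bbs10 and bbs12, whose products help to assemble the BBSome, stood at -0.25 and -0.15 with S1 and at -0.13 and -0.11 with S2.

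Among the 11 genes of the motile axoneme, 7 lay below 0 with S1 and 9 with S2, none passed, and the median difference was -0.073 with S1 and -0.21 with S2. The inner dynein arm heavy chain gene dnah7 had levels of -0.58, -0.26, -0.42 and -0.32 in S1 embryos, -0.53, -0.44, -0.49 and -0.48 in S2 embryos, and -0.23, -0.29, 0.10 and -0.18 in control embryos. The S2 samples were tightly grouped below all control samples, and the S1 samples overlapped control. The difference was -0.34 ± 0.11 with S2 (SE, limma adjusted p = 0.0906) and -0.24 ± 0.11 with S1 (limma adjusted p = 0.262). With array weights, which give noisier arrays less influence, the S2 difference of -0.31 passed (adjusted p = 0.0371). Over 28 alternative fits its adjusted p ran between 0.0371 and 0.9996. The upper end came from normexp on backgrounds as measured, where 29 of all tested probes passed with S2, against 1476 in the main fit.

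The cilia and flagella associated gene cfap99 had levels of -2.49, -2.34, -2.34 and -1.83 in S1 embryos, -2.37, -2.41, -2.37 and -2.52 in S2 embryos, and -2.06, -2.22, -1.93 and -2.09 in control embryos. S2 and control samples did not overlap, whereas S1 replicate 4 lay above every control sample. The S2 difference was -0.35 ± 0.13 (SE, limma adjusted p = 0.160) and the S1 difference was -0.17 ± 0.13. Levels of rsph14, a radial spoke head gene, were -2.82, -2.72, -2.83 and -2.87 in S1 embryos, -2.98, -2.87, -2.86 and -3.05 in S2 embryos, and -2.83, -2.69, -2.66 and -2.75 in control embryos. The S2 samples again lay below control, by a narrow margin, with a difference of -0.21 ± 0.084 (SE, limma adjusted p = 0.180). The normexp forms gave 0.11 and -0.0045 for it.

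Other axoneme genes gave wider, smaller or opposite values. The central apparatus gene cfap74, a role known from Chlamydomonas, stood higher, at 0.18 ± 0.11 with S1 and 0.28 ± 0.11 with S2 (SE, limma adjusted p = 0.186 for S2). Its levels were 0.24, 0.23, 0.52 and 0.16 in S1 embryos, 0.41, 0.50, 0.31 and 0.29 in S2 embryos, and 0.05, 0.35, -0.04 and 0.04 in control embryos, where control replicate 2 overlapped both exposed groups. The differences of cfap57 were -0.26 ± 0.18 with S1 and -0.27 ± 0.18 with S2. With S1 cfap69, cfap73, cfap206 and cfap299 stood at 0.0505, -0.029, 0.088 and -0.25. With S2 these genes stood at -0.24, -0.091, -0.0365 and -0.29. The dim radial spoke gene rsph10b had the most negative difference of all members, -0.75 ± 0.44 with S1 (limma adjusted p = 0.431), and -0.018 ± 0.44 with S2. It was well above background on 1 S1 array, 2 S2 arrays and 2 control arrays, and its interval with S1 ran between -1.72 and 0.22. The sign of that S1 difference turned in both normexp forms, to 0.75 and 0.52. Its processed signals, between 1.85 and 12.81, lay below the offset of 50 added there. So did those of ttll2, between 8.59 and 24.66, and of cep135, between 6.86 and 23.89, whose S2 signs also turned in both forms. The part of the offset in these turns was not tested, and the direction of rsph10b is not settled.

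Taken array by array, the median level of the 11 axoneme genes relative to each gene's own mean was -0.20, 0.11, 0.050 and -0.012 in S1 embryos, -0.084, -0.12, -0.029 and -0.12 in S2 embryos, and 0.11, 0.031, 0.16 and 0.090 in control embryos. All 4 S2 samples lay below all 4 control samples and the S1 samples overlapped both. Over all tested probes the same medians overlapped, between -0.034 and 0.013 in S2 embryos and between -0.041 and 0.0905 in control embryos. Levels are relative to a percentile of each array's own probes, which holds these medians near 0. They are therefore no background for a median over 11 genes. How often 11 other genes would separate the groups was not tested. In each of the other roles S2 and control medians overlapped as well. The separation of the axoneme genes is a description with no test, since the genes were chosen with these data known. Within slides the S2 median was -0.15, -0.036 and -0.14 on slides 1, 2 and 3, and without control replicate 3 it was -0.11. With normexp on backgrounds as measured the S2 median turned to 0.078. With outlying backgrounds replaced it was -0.060, with 7 of 11 genes below 0. The S1 median turned in both forms, to 0.20 and 0.091.

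**Figure D2:**
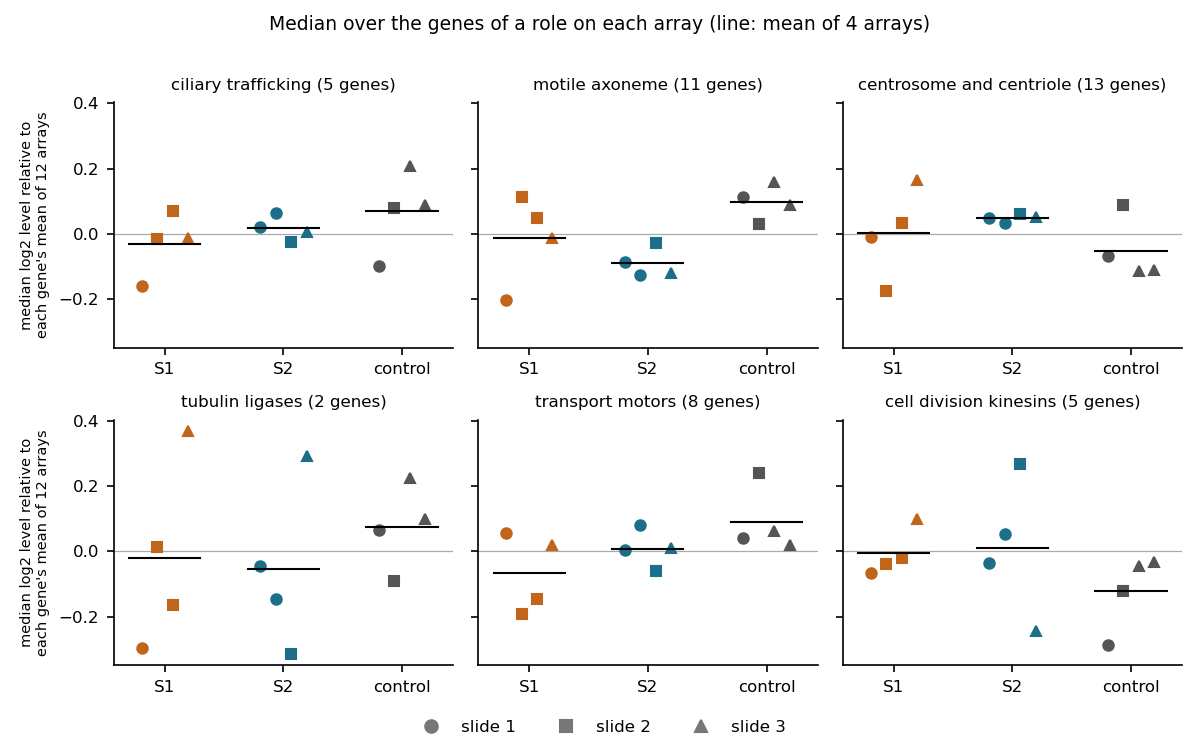
Median over the genes of each role on each array, as log2 level relative to each gene's mean of the 12 arrays, for S1, S2 and control samples (points, shaped by slide; the line is the mean of 4 arrays). The 4 S2 points of the motile axoneme, between -0.12 and -0.029, lie below its 4 control points, between 0.031 and 0.16, and in the other 5 roles S2 and control points overlap. The median S2 difference of the axoneme genes turns sign in 1 of the 2 normexp forms, at 0.078 against -0.060.

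The outer dynein arm intermediate chain gene dnai2 was the one member with several probes. It had 14 probes for 1 transcript, of which 11 shared a probe number. The brightest probe, which stood for the gene, gave 0.049 ± 0.11 with S1 and 0.052 ± 0.11 with S2 (SE). The other 13 probes all lay below 0 with S2, namely the 11 of the shared number and 2 single probes, at -0.31 and -0.25. The 14 ran between -0.31 and 0.052 with a median of -0.22, in which the shared number weighs most. With S1 they ran between -0.11 and 0.14 around a median of -0.0088, and 8 of 14 lay below 0. None of the 14 was called in either comparison, the smallest adjusted p being 0.169 with S2. Averaged over its probes, dnai2 stood at -0.20 ± 0.12 with S2 (SE, limma adjusted p = 0.346). This average counts the shared number 11 times. The brightest probe and the others therefore disagreed in sign with S2, and the 14 probes share the same RNA samples, so that they are not 14 measurements of the embryos. The 11 probes of the shared number averaged -2.97, -3.05, -2.69 and -2.65 in S1 embryos, -2.92, -3.19, -3.13 and -2.97 in S2 embryos, and -2.85, -3.06, -2.71 and -2.74 in control embryos, where control replicate 2 lay among the S2 samples.

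**Figure D3:**
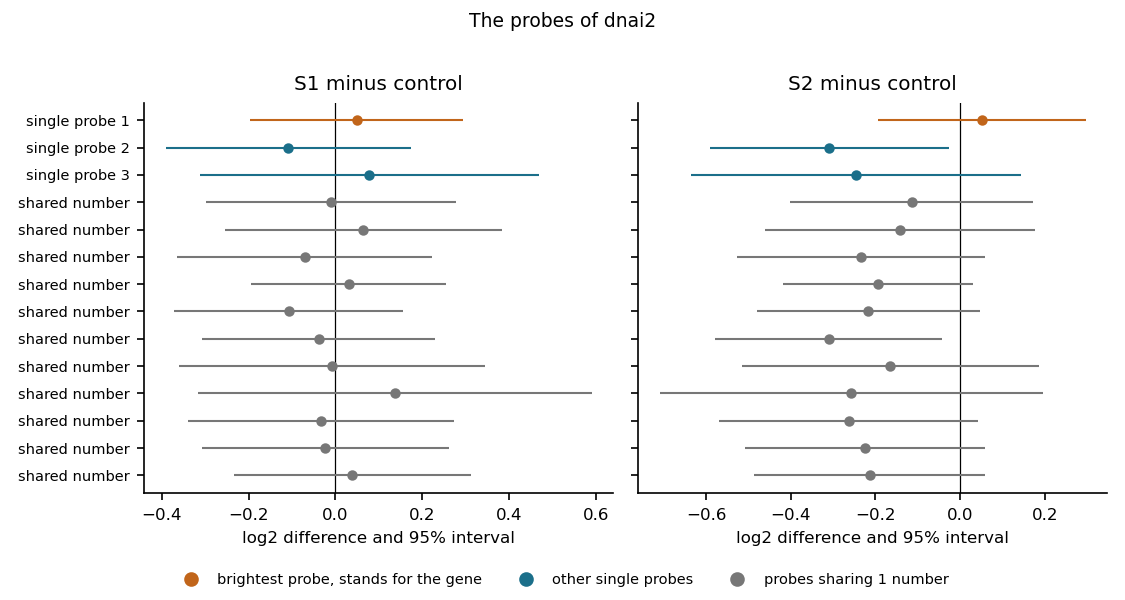
Log2 difference of each of the 14 probes of dnai2 with its 95% interval, for S1 minus control on the left and S2 minus control on the right. With S2 the brightest probe lies at 0.052 and the 13 others below 0. With S1 the probes spread to both sides of 0.

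The 13 centrosome and centriole genes had median differences of 0.019 with S1 and 0.071 with S2, and none passed. The centriolar satellite gene cep131, whose product takes part in forming cilia, came nearest. Its levels were 0.68, 0.69, 0.75 and 1.02 in S1 embryos, 0.53, 0.60, 0.46 and 0.61 in S2 embryos, and 0.51, 0.31, 0.39 and 0.42 in control embryos. All S1 samples lay above all control samples, and S2 samples overlapped control. The difference was 0.37 ± 0.098 with S1 (SE, limma adjusted p = 0.0741) and 0.14 ± 0.098 with S2 (limma adjusted p = 0.438). It passed in none of 27 alternative fits at the same threshold, where its adjusted p with S1 ran between 0.0578 and 0.784. The upper end came from normexp on backgrounds as measured, where 28 of all tested probes passed with S1.

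A further centriole gene, cep295, which is needed for new centrioles to mature into centrosomes, separated S2 from control. Its levels were -2.53, -3.16, -2.72 and -2.16 in S1 embryos, -2.39, -2.43, -2.51 and -2.32 in S2 embryos, and -2.73, -2.64, -2.79 and -2.86 in control embryos. S2 samples all lay above control, and the S1 samples spread to both sides of it. The differences were 0.34 ± 0.17 with S2 (SE, limma adjusted p = 0.269) and 0.11 ± 0.17 with S1. The distal appendage gene cep164, needed for a basal body to dock at the membrane, gave 0.35 ± 0.24 with S2 and 0.091 ± 0.24 with S1. The cartwheel-associated gene cep135 was dim and gave 0.19 ± 0.31 with S1 and -0.044 ± 0.31 with S2. The gene cep70 differed between slides. Its slide term passed (limma adjusted p = 0.0114), as it did for no other member and for 3.46% of all probes, and its difference was 0.058 ± 0.32 with S1 and -0.36 ± 0.32 with S2. The other centrosome genes, among them the centriole duplication gene cep152 and the capping gene cep97, lay between -0.16 and 0.14 with S1 and between -0.095 and 0.15 with S2.

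Both tubulin ligases, enzymes of the family that adds amino acids to tubulin tails, lay near control. The dim ttll2 gave -0.19 ± 0.31 with S1 and -0.25 ± 0.31 with S2 (SE), and ttll4, a glutamylase, gave -0.0001 with S1 and -0.0090 with S2.

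Of the 8 transport motors, 7 lay below 0 with S1 and 5 with S2, with medians of -0.15 with S1 and -0.093 with S2, which turned to 0.33 and 0.13 with normexp on backgrounds as measured and to 0.044 and 0.013 with outlying backgrounds replaced, and none passed. The kinesin-4 motor gene kif21a had levels of -3.83, -3.98, -4.19 and -4.67 in S1 embryos, -3.90, -3.82, -3.47 and -4.03 in S2 embryos, and -3.20, -3.27, -3.90 and -4.0 in control embryos. The groups overlapped because control samples themselves fell into a higher and a lower pair, the lower pair lying on slide 3. The S1 difference was -0.57 ± 0.23 (SE, limma adjusted p = 0.214) and the S2 difference was -0.21 ± 0.23. With slide as a block the S1 difference was -0.72 and passed (adjusted p = 0.0301), and within slides 1, 2 and 3 it was -0.62, -0.81 and -0.72. The adjusted p ran between 0.0301 and 0.784 over 28 alternative fits, with the upper end from normexp on backgrounds as measured. In that fit 28 of all tested probes passed with S1. The sign turned, to 0.46 and 0.22, in both forms of the normexp correction and, to 0.19, with array brightness as a covariate. Brightness did not overlap between S1 and control arrays, so that fit can hardly separate it from S1 exposure.

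**Figure D4:**
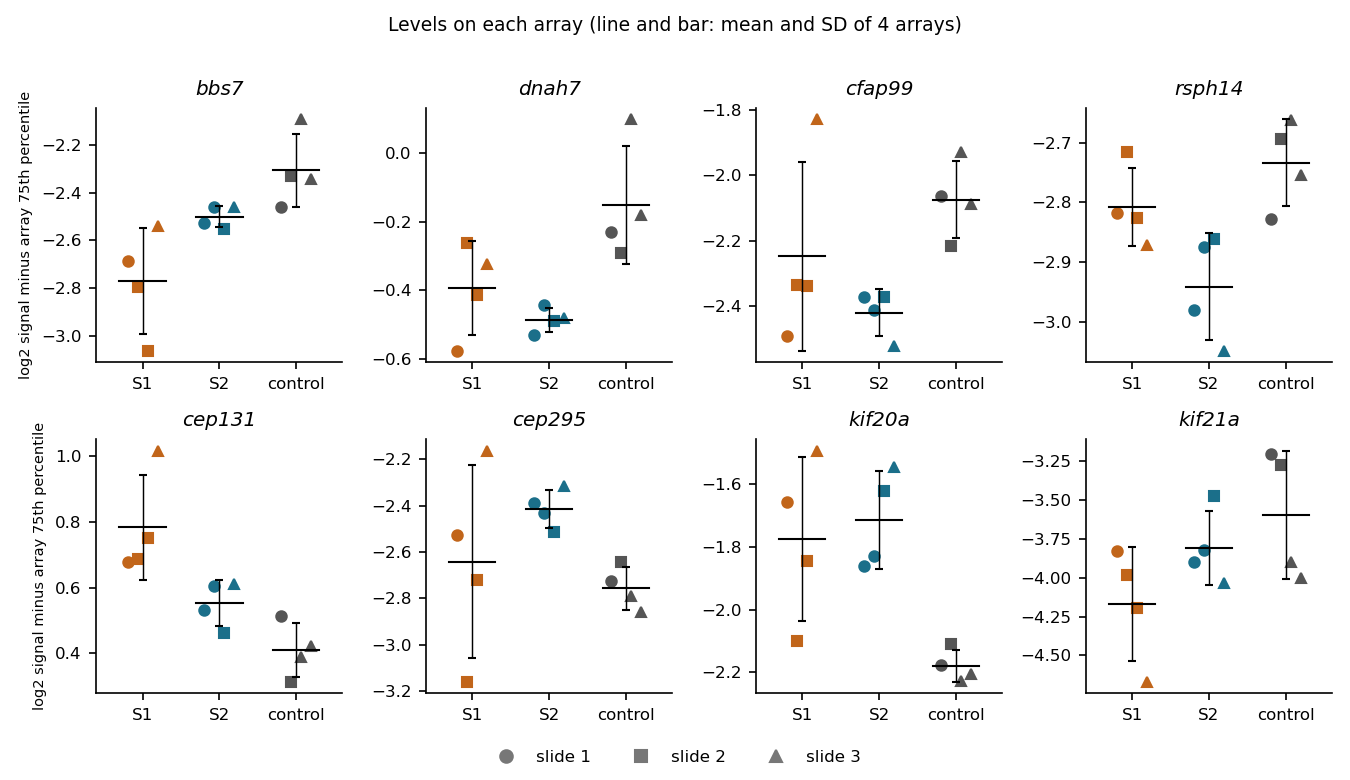
Levels of 8 members on each array, as log2 signal minus the array's 75th percentile, for S1, S2 and control samples (points, shaped by slide; line and bar are mean and SD of 4 arrays). S1 and control do not overlap for bbs7, cep131 and kif20a, S2 and control do not overlap for dnah7, cfap99, rsph14, cep295 and kif20a, and the kif21a panel shows its high and low control samples on different slides.

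The kinesin-3 gene kif13a, which carries endosomal cargo, was lower in all S2 samples than in control samples. Its levels were -1.76, -1.88, -2.08 and -2.03 in S1 embryos, -2.04, -1.96, -1.98 and -2.13 in S2 embryos, and -1.71, -1.63, -1.80 and -1.82 in control embryos. The S2 difference was -0.29 ± 0.095 (SE, limma adjusted p = 0.108) and the S1 difference was -0.20 ± 0.095 (limma adjusted p = 0.321), with S1 replicate 1 inside the control range. The kinesin-2 motor subunit gene kif3a, which drives outward intraflagellar transport, stood at -0.059 ± 0.12 with S1 and 0.093 ± 0.12 with S2, and its intervals ran between -0.31 and 0.20 and between -0.16 and 0.35. The sign of its S1 difference turned in both normexp forms, to 0.40 and 0.25, where the median of all probes was 0.26 and 0.16. Its neuronal relative kif3c gave -0.31 ± 0.25 with S1 and -0.30 ± 0.25 with S2. The early endosome motor kif16b gave 0.34 ± 0.26 with S1 and 0.17 ± 0.26 with S2. The cytoplasmic dynein light intermediate chain gene dync1li2 gave -0.028 ± 0.10 with S1 and 0.20 ± 0.10 with S2. The remaining pair, kif26a and kif26b, belongs to a kinesin family with little or no motor activity and lay at -0.10 and -0.24 with S1 and at -0.14 and -0.041 with S2.

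Of the 5 kinesins of cell division, kif20a differed from the others. Its product acts at the spindle midzone and in cytokinesis. Its levels were -1.66, -2.10, -1.84 and -1.49 in S1 embryos, -1.86, -1.83, -1.62 and -1.55 in S2 embryos, and -2.18, -2.11, -2.23 and -2.20 in control embryos. Every exposed sample lay above every control sample, S1 replicate 2 only just, and control samples were tightly grouped. The difference was 0.41 ± 0.13 with S1 (SE, limma adjusted p = 0.133) and 0.46 ± 0.13 with S2 (limma adjusted p = 0.0615), and within slides 1, 2 and 3 the S2 difference was 0.33, 0.49 and 0.67.

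The S2 difference of kif20a passed in 8 of 27 alternative fits, over which its adjusted p ran between 0.0251 and 0.9996. The upper end came from normexp on backgrounds as measured, where 29 of all tested probes passed with S2, against 1476 in the main fit. It passed after quantile normalization and with the authors' value table (0.52, adjusted p = 0.0332 in each), after median scaling (0.52, adjusted p = 0.0382) and with array weights (0.41, adjusted p = 0.0251). The authors' table matched the quantile-normalized values, so that it is not a separate fit. With the S2 difference unchanged at 0.46, kif20a also passed when only probes well above background on all 12 arrays were tested (adjusted p = 0.0485). So it did in a fit of S2 and control arrays alone (adjusted p = 0.0387), and without S1 replicate 2 (adjusted p = 0.0336) or S1 replicate 4 (adjusted p = 0.0401). Without S1 replicate 2 the S1 difference passed as well (0.51, adjusted p = 0.0484). The probe is a cross-hybridising one, and transcripts other than kif20a may contribute to its signal.

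The other division kinesins did not follow it. The spindle motor gene kif11 gave -0.0021 ± 0.14 with S1 and 0.026 ± 0.14 with S2 (SE), and the microtubule depolymerase gene kif2c gave -0.049 ± 0.095 with S1 and -0.013 ± 0.095 with S2. The astral microtubule regulator kif18b gave 0.014 ± 0.24 with S1 and -0.32 ± 0.24 with S2. The dim kif14l gave -0.11 ± 0.33 with S1 and 0.016 ± 0.33 with S2. Of a list of 36 other cell division genes, 8 were measured and 0 passed in either comparison by limma. At an unadjusted p under 0.05 there were 0 with S1, against 17.2% of all probes. With S2 there was 1, ccnb3 at -0.32, against 21.4% of all probes. The list's median differences were -0.14 with S1 and -0.14 with S2. Its genes ran between -0.44 and 0.18 with S1 and between -0.32 and 0.18 with S2, with mcm5 highest in both. The gene foxm1, a transcription factor of mitotic genes, stood at -0.20 and -0.28.

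Members whose samples did not overlap made up no larger a share than probes in general in the comparisons with control. With S1, 3 of 44 members (6.82%) separated all exposed from all control samples, namely bbs7 below and cep131 and kif20a above, where 10.6% of all probes did so (4.95% below and 5.61% above). With S2, 6 of 44 (13.6%) did so, namely dnah7, cfap99, rsph14 and kif13a below and cep295 and kif20a above, where 15.9% of all probes did (8.30% below and 7.55% above). A difference with the same sign on all 3 slides was found for 17 members with S1 (38.6%, against 42.2% of all probes) and for 14 with S2 (31.8%, against 40.1%). The 2 comparisons share their control samples, so that agreement between them is not independent.

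The second question was whether the 2 mixtures differed. In S2 embryos against S1 embryos limma called 0 of 44 members and 0 of all 29168 probes (0.00%). At an unadjusted p under 0.05 there were 3 members (6.82%, against 7.34% of all probes), namely bbs7 at 0.27 ± 0.12, dync1li2 at 0.23 ± 0.10 and cep131 at -0.23 ± 0.098 (SE, limma adjusted p = 0.680, 0.680 and 0.675). Samples of S2 and S1 did not overlap for 4 members (9.09%, against 4.67% of all probes, 2.66% below and 2.01% above), which were cep131 below and cep170, cep350 and kif26b above. The median difference was 0.016 for members and -0.024 for all probes, and 42 of 44 intervals lay within a 2-fold change, all but those of rsph10b and cep70. The differences reported for 1 mixture alone were therefore not shown to be particular to it.

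Other genes of the same structures gave a similar result. Of 6 lists of other cilium, centrosome and motor genes, 53 distinct genes were measured and limma called 0 with S1 and 0 with S2. At an unadjusted p under 0.05 there were 3 with S1 (5.66%, against 17.2% of all probes) and 7 with S2 (13.2%, against 21.4%), and the median difference was -0.088 with S1 and -0.038 with S2. The nearest to a call was spef1, which encodes a microtubule-binding protein of the central apparatus, at -0.45 ± 0.12 with S2 (SE, limma adjusted p = 0.0545) and -0.28 ± 0.12 with S1 (limma adjusted p = 0.271). Of 11 transition zone genes, tctn2 and tctn3 stood at -0.34 and -0.41 with S2 (limma adjusted p = 0.0934 and 0.126). Of the 4 measured genes for dynein assembly and docking, zmynd10 and ccdc151 stood at -0.26 and -0.31 with S2 (limma adjusted p = 0.209 and 0.231). The other two, dnaaf5 and ruvbl1, stood at 0.27 and 0.0011 with S2 (limma adjusted p = 0.244 and 0.998). The centriole genes sass6 and fbf1, which complete the 7 with S2, rose, at 0.23 and 0.21 (limma adjusted p = 0.143 and 0.213). The 3 with S1 were spef1, pcnt at -0.28 and the transition zone gene tmem17, which rose, at 0.32 (limma adjusted p = 0.223 for pcnt and 0.204 for tmem17).

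Of 20 genes listed for cilium transcription and multiciliated cell fate, 5 were measured and none passed in either comparison. The summed level of these 5 ran between 1.74 and 2.45 in S1 embryos, between 1.99 and 2.24 in S2 embryos and between 1.79 and 2.55 in control embryos, in multiples of the array's 75th percentile. The gene mcidas, a regulator of the multiciliated programme, stood at -0.18 ± 0.16 with S1 and -0.30 ± 0.16 with S2 (SE, limma adjusted p = 0.639 and 0.315), and tp73 stood at -0.13 and -0.19. The other 3 were deup1 at 0.42 ± 0.28 with S1 and 0.38 ± 0.28 with S2, myb at 0.019 and 0.080, and gmnc at 0.25 ± 0.56 and -0.23 ± 0.56. Of these, deup1 was well above background on 9 arrays and gmnc on 5. The probes of deup1 and myb are cross-hybridising ones. The median of the 5 was 0.019 with S1 and -0.19 with S2. Genes foxj1 and rfx2, the best-known activators of motile cilium genes, had no matched probe.

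Some markers of epidermis and of retina and lens passed the test beside these values, and those of neurons and liver did not. The marker lists were chosen with earlier results of these data known, so that this contrast is a description only. Of 14 listed epidermis genes 2 were measured, krt78.1 and krt78.3, and their summed level ran between 2.36 and 2.74 in S1 embryos, between 2.05 and 2.39 in S2 embryos and between 3.52 and 5.14 in control embryos. The keratin gene krt78.1 fell by 1.85 ± 0.27 with S1 (SE, limma adjusted p = 0.00347) and fell by 2.46 ± 0.27 with S2 (limma adjusted p = 0.000283), and krt78.3 fell by 0.52 ± 0.13 with S2 (limma adjusted p = 0.0364). The S1 difference of krt78.3, -0.32, did not pass (limma adjusted p = 0.214). Its probe is a cross-hybridising one, and transcripts other than krt78.3 may contribute to its signal. The probes of rho and of the liver genes alb, fga and fgg, used below, are cross-hybridising too. Of 10 retina and lens genes 5 were measured, and their summed level ran between 2.73 and 2.97 in S1 embryos, between 2.31 and 3.05 in S2 embryos and between 3.74 and 4.34 in control embryos. Of these, 1 passed with S1 and 2 with S2. The photoreceptor gene rbp3 fell by 0.48 ± 0.089 with S1 (limma adjusted p = 0.0175) and by 0.64 ± 0.089 with S2 (limma adjusted p = 0.00218), and the lens crystallin gene cryga.1 fell by 1.31 ± 0.34 with S2 (limma adjusted p = 0.0478). With S1 cryga.1 stood at -0.81 (limma adjusted p = 0.248). The others did not pass: rho at -0.0014 with S1 and -0.25 with S2, bfsp1 at -1.74 and -1.57, and bfsp2 at -1.51 and -1.45. Of 12 neuron genes 2 were measured, and their summed level ran between 20.7 and 32.1 in S1 embryos, between 26.5 and 33.5 in S2 embryos and between 28.9 and 38.2 in control embryos. The neurofilament gene nefl stood at -0.45 with S1 and -0.39 with S2 (limma adjusted p = 0.166 and 0.176), and nefm at -0.20 and 0.090. Of 10 liver genes 4 were measured, with medians of -0.098 with S1 and -0.080 with S2, and their summed level ran between 10.8 and 14.4 in S1 embryos, between 11.3 and 17.9 in S2 embryos and between 8.94 and 14.8 in control embryos. The part of these tissues in the values of ift88, kif5c, dnah7 and the other axoneme genes was not tested.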

How the data were processed

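Total RNA of 12 whole-embryo samples, 4 per group, was hybridised to single-colour Agilent arrays, per the labels. Per the file headers, scans were read by the authors in Agilent Feature Extraction 11.0.1.1. The processed signal they deposited is a linear intensity. The array design names the genome build JGI 4.1. The authors' deposited value table is in log2 units. Its columns had 1 common median and matched the quantile-normalized log2 of each array's own signal, uncentred and in the same direction. No source used here names the tool behind it.

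Here log2 intensity minus the array's 75th percentile was used. The 295 spots with an outlier mark were left out, unless all spots of a probe on that array were marked. No spot was saturated. Spots of a probe were averaged, and 29168 of 32899 probes, well above background on at least 4 arrays, were fitted over all 12 arrays with no covariate, by lmFit, contrasts.fit and eBayes of limma 3.58.1 (R 4.3.3). Adjusted p-values are Benjamini-Hochberg values over all tested probes within a comparison, with a threshold of 0.05. The fit was tested on simulated data. For a gene with several probes, the brightest stood for it. Symbols came from RefSeq (UCB_Xtro_10.0), another assembly than the array's, so no coordinates are given. Promoter motifs and sequences were not used here. The local background alternative (normexp) used the median spot signal with an offset of 50, as a mean signal was not used here.

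The members and gene lists were chosen with earlier results of these data known. Named members were, for each comparison with control, the 5 highest and 5 lowest differences, the smallest F-test p of each family, and kif3a. Members named besides these, such as kif13a, kif26b, cep170 and cep350, and genes of other lists that did not pass, were chosen after their values were seen. Python 3.11.15 with matplotlib 3.10.9 drew the figures.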

Additional observations from a re-analysis of the deposited data

Results flagged for a closer look

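Of 153 groups of 4 samples, 9 held 1 sample set apart from the other 3 by Dixon's test, where chance gives about 1 in 20. For ift46, S1 replicate 4 stood at 4.06 against 4.44 to 4.48 in the other S1 samples, and control replicate 3 stood at 4.08 against 4.49 in the others. Both arrays lie on slide 3, and without control replicate 3 the S2 difference of ift46 was -0.0001. For cep164, control replicate 3 stood at -3.64 against -4.20 to -4.13, and S2 replicate 2 stood at -3.86 against -3.65 to -3.62. S2 replicate 2 was also apart for cep350, at -0.76 against -1.01 to -0.98. S2 replicate 1 was low for cep57l1, at -1.32 against -1.16 in the others, and for cep152, at -2.49 against -2.32 to -2.30. For cep55, S1 replicate 2 stood at -0.75 against -0.32 to -0.31. For cep135, S2 replicate 3 stood at -5.96 against -5.39 to -5.31 and was not well above background. By array, 2 of the 9 fell on S2 replicate 1, 2 on S2 replicate 2, 1 on S2 replicate 3, 1 on S1 replicate 2, 1 on S1 replicate 4 and 2 on control replicate 3.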

How the results depend on the processing

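Every member result was recomputed under 33 alternative settings, 30 of them with a test. In S2 minus S1 the count called was 0 in each of the 30. In S1 minus control it was 1 after quantile normalization, in the authors' value table and with slide as a block, 1 with ift88 and kif5c added, and 2 at an adjusted p under 0.10. In S2 minus control it was 1 after quantile normalization, median scaling, in the authors' table, with probes on all 12 arrays and with each comparison fitted on its own groups, and 2 with array weights, at an adjusted p under 0.10 and with ift88 and kif5c added. The F-test called 2 with those genes added. When 1 sample was left out, the count ran between 0 and 1 for S1, S2 and the F-test, and it was 1 without S1 replicate 2 (each of these) or S1 replicate 4 (S1 and S2). The addition of ift88 and kif5c was chosen after seeing the data. In the main fit 2.10% of all probes passed with S1 and 5.06% with S2, and the number passing also changed with the setting. A count of 1 or 2 members therefore does not show that a setting favoured the members over other probes.

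The replicate number as a block left 0 members called in each comparison. Same-numbered samples correlated at -0.029 to 0.362 over 12 pairs, and 8 of 12 samples correlated best with one of their own number. Samples numbered 1 all lay on slide 1 and those numbered 4 on slide 3. Between samples of different groups the median correlation was 0.156 on the same slide and -0.066 on different slides. Number and slide thus cannot be fully told apart, and the labels do not say that a number marks a shared origin. The block was therefore not used, and it changed no call of a named member.

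The median over members with normexp on measured backgrounds was 0.26 for S1, 0.12 for S2 and -0.17 for S2 minus S1, where all probes moved to 0.26, 0.15 and -0.15. With outlying backgrounds replaced it was 0.12, 0.061 and -0.10, where all probes moved to 0.16, 0.081 and -0.12. Relative to these shifts the members stood at -0.041 to 0.014. Median scaling gave 0.032 for S2 and 0.059 for S2 minus S1, and brightness as a covariate gave -0.059 for S1. Without S1-4, S2-4 and C-3 it was -0.064 for S1 and -0.052 for S2. Slide 1 gave 0.040 for S2 and 0.086 for S2 minus S1, slide 2 gave -0.071 for S1, and slide 3 gave 0.026 for S1, 0.047 for S2 and -0.065 for S2 minus S1. When 1 sample was left out, the median ran between -0.093 and -0.013 for S1, with -0.093 without S1 replicate 4, between -0.048 and -0.014 for S2, and between 0.0080 and 0.031 for S2 minus S1. The cause of these moves was not tested.

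Of 1430 recomputed differences of the 22 named members, 121 had another sign than in the main setting, none of them past the threshold. The number of arrays and the low signal of rsph10b, cep135, kif14l and ttll2 limit the precision.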

Other observations

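Cross-hybridising probes were 10 of the 44 but gave all 3 members that separated S1 from control samples (bbs7, cep131 and kif20a), and 0 of the 34 specific probes did so. With S2 the counts were 2 of 10 and 4 of 34. A call at an adjusted p under 0.05 is another measure than the overlap of samples. Over all tested probes the share called was 2.06% for cross-hybridising and 2.13% for specific probes with S1. With S2 it was 4.86% and 5.23%. Overlap over all probes was not split by probe type, so the member counts have no matching background. No test was made of these counts or shares.

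The 4 members below the threshold of measurement had raw signals near background. The cfap70 probe was well above background on S1 replicate 1 and control replicate 3, at signals of 13.04 and 12.73, and cep63 only on control replicate 4. The tubulin depolymerising kinesin kif2a, with 2 probes, and ttll3 were not well above background on any array.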
